A study of Homo sapiens with 4 samples.

Results

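Microexons are the shortest exons of spliced transcripts, and here they are the cassette exons of at most 27 nt in a table of alternative splicing in HEK293T cells. They were found from the table's exon coordinates alone, as rows whose exon spans 27 nt or fewer, and rows for the same exon were merged by chromosome, strand, start and end. This gave 326 unique microexons in 304 genes, from 363 events, out of 27483 unique exons and 31408 events in all (1.19% of the exons). Their lengths ran from 3 to 27 nt, with a median of 22 nt.

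HEK293T cells are an established line of human embryonic kidney origin. Total RNA depleted of ribosomal RNA was sequenced, with strand kept, from 4 clones, 2 labelled wild type and 2 labelled RBFOX2 KO, to find exons whose splicing depends on RBFOX2. Per the labels' protocols all clones came from cells given the Cas9 plasmid PX459 and a pgRGFP guide plasmid directed to either side of RBFOX2, and each grew from a sorted single cell whose genotype was read by PCR. RBFOX2, also called RBM9, is the RNA-binding protein removed in the knockout; the table lists 0 events for its own gene, so its loss could not be checked there. A genotype difference and a difference between single-cell clones cannot be told apart with so few clones.

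The deposited comparison sets the libraries of a first set against those of a second, and neither the header nor the labels say which set is wild type. Every direction below is therefore given between sets and not as a gain or loss on knockout. The inclusion difference is the first set's mean inclusion level less the second set's, on a scale from 0 (always skipped) to 1 (always included), in the usual sign of the program rMATS. The columns with reads and inclusion levels of single libraries name no clone and were not used. Coverage, the value in each library and the spread between clones are for that reason not given.

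Microexons are best known from neurons, where the splicing factor SRRM4 promotes the inclusion of many of them. An exon this short has little room for splicing signals, so its recognition leans on elements in the flanking introns. Many microexons keep the reading frame and add only a few residues, often at a protein surface that binds a partner. RBFOX proteins bind the element GCATG; as a rule they promote an exon when bound downstream of it and repress it when bound upstream. Kidney-derived HEK293T cells are not neurons, so most microexons known from neurons need not be included in them.

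An event passed when its false discovery rate (FDR) in the authors' deposited table was under 0.05 and its absolute inclusion difference was at least 0.1, and an exon passed when any of its events did. Of the 326 microexons, 34 in 34 genes passed (10.4%, Wilson 95% interval 7.56% to 14.2%, counting error only), where 5.73% of all unique exons passed. Counted as events, 34 of 363 passed (9.37%), where 5.15% of all events did. Inclusion was higher in the first set for 19 of the 34 (3.08% of all exons passed in that direction) and higher in the second set for 15 (2.65% of all exons). An FDR under 0.05 with a difference too small to pass was found for 3 further microexons.

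The passing microexons with the lowest p-values are printed first, as an order of listing and not of certainty, since read depth is unknown here. The microexon is in capitals and the 15 spliced bases before and after it are in lower case, 5′ to 3′ on the strand of the gene, read from GENCODE 29 transcripts of the same exon and intron lengths. Positions are those of the deposited table, with hg19 as the build that the submitters' processing notes name.

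UGGT1, chr2:128913966-128913989, plus strand, 24 nt: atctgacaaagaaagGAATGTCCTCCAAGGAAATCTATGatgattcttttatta

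DIAPH1, chr5:140967791-140967817, minus strand, 27 nt: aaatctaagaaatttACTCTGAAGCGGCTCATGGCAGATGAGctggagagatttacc

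ACOT9, chrX:23752458-23752484, minus strand, 27 nt: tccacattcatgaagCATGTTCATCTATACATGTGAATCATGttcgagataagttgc

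SLIT2, chr4:20526772-20526795, plus strand, 24 nt: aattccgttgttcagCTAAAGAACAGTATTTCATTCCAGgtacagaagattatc

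FLNA, chrX:153585619-153585642, minus strand, 24 nt: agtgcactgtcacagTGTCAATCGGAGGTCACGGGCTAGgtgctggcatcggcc

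MARK3, chr14:103964839-103964865, plus strand, 27 nt: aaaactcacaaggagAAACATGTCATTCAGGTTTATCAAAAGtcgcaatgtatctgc

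FERMT2, chr14:53327732-53327752, minus strand, 21 nt: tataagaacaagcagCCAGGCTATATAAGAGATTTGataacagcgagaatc

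These 7 exons and a 22-nt exon of RPS24 are the microexons with a p-value under 1e-10 in the authors' deposited table. Inclusion was higher in the second set for 7 of the 8 and higher in the first set for FERMT2. Among all 34 passing microexons, 19 were higher in the first set. The split of all exons at this p-value limit was not computed, so no bias in direction is read from the 8. All 7 printed exons lie wholly within the coding sequence, and each has a length divisible by 3.

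Among genes of the cytoskeleton and cell adhesion, 6 microexons passed, 3 in each direction. The functional groups used here were assigned to the passing exons alone, after these were known, and carry no test. How many of all microexons fall in each group was not counted, so the group sizes show no enrichment. DIAPH1, a formin that nucleates actin filaments, had a 27-nt exon with a difference of -0.822 and an FDR listed as 0 in the authors' deposited table. An exon of 9 nt in DIAPH1 was also listed, at 0.045 with a p-value of 1 in the authors' deposited table. FLNA, or filamin A, crosslinks actin filaments, and its 24-nt exon had -0.25 at FDR 2.3e-11 in the authors' deposited table. The exon of 18 nt in DST, a spectraplakin that links cytoskeletal filaments, was listed at -0.346 with FDR 8.89e-08 in the authors' deposited table. The other members of this group were higher in the first set. FERMT2, or kindlin-2, activates integrins, and its 21-nt exon had 0.416 at FDR 1.12e-10 in the authors' deposited table. For the exon of 9 nt in KIF3A, a subunit of the kinesin-2 motor, the authors' deposited table gave 0.677 with FDR 1.95e-07. TPGS2, a subunit of the tubulin polyglutamylase, had the smallest difference of any passing microexon, 0.115, at FDR 0.00182 in the authors' deposited table.

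Membrane trafficking genes held 10 of the passing microexons, 7 with the first set higher and 3 with the second. Exons of 9 nt passed in 2 subunits of AP-1, the adaptor complex that links clathrin to cargo at the trans-Golgi network and endosomes, and they went in opposite directions. In AP1G1, the gamma subunit, the authors' deposited table gave -0.164 with FDR 1.36e-06. In AP1B1, the beta subunit, the authors' deposited table gave 0.302 with FDR 8.26e-06. Dynamins are GTPases that cut vesicles from membranes, and 12-nt exons passed in both DNM1 and DNM2. The DNM1 exon had 0.488 at FDR 1.95e-07 and the DNM2 exon 0.189 at FDR 0.00561 in the authors' deposited table. Passing exons of KIF3A, AP1G1, AP1B1 and DNM1 are printed, with the 3-nt exon of RTRAF described further on, because they show how little sequence is inserted.

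KIF3A, chr5:132042143-132042151, minus strand, 9 nt: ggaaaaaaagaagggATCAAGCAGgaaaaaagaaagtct

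AP1G1, chr16:71801780-71801788, minus strand, 9 nt: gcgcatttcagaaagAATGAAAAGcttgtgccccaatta

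AP1B1, chr22:29725701-29725709, minus strand, 9 nt: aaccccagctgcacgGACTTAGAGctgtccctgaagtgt

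DNM1, chr9:131010203-131010214, plus strand, 12 nt: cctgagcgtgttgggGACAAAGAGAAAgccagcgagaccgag

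RTRAF, chr14:52470958-52470960, plus strand, 3 nt: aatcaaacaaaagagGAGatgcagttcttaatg

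Further trafficking exons that passed with the first set higher were in STX16, SNX14, CADPS2 and GRIPAP1. STX16 is a SNARE of the trans-Golgi network, and its 12-nt exon was listed at 0.502 with FDR 5.29e-06 in the authors' deposited table. CADPS2 acts in the exocytosis of dense-core vesicles, and its 15-nt exon had 0.632 at FDR 0.000572 in the authors' deposited table. The exon of 27 nt in the sorting nexin SNX14 had 0.383 at FDR 0.000174 in the authors' deposited table. The second set was higher for the 11-nt exon of SNX21, another sorting nexin, and for the 18-nt exon of the Golgi protein MON2. In the authors' deposited table these had -0.356 at FDR 0.0219 and -0.315 at FDR 0.0236. A 21-nt exon of CLTC, the clathrin heavy chain, had FDR 4.09e-05 in the authors' deposited table, but its difference of -0.055 was too small to pass.

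Genes for cell-surface and secreted proteins held 3 passing microexons. SLIT2, a secreted guidance cue that binds ROBO receptors, had a 24-nt exon at -0.51 with an FDR listed as 0 in the authors' deposited table, and its 12-nt exon was listed at 0.01 with a p-value of 0.566. The 27-nt exon of COL25A1, a transmembrane collagen, had -0.696 with FDR 1.93e-06 in the authors' deposited table. ADGRL3, a latrophilin receptor of the adhesion G-protein-coupled class, is described below with its relative ADGRL1. Microexons of the receptors for SLIT2 did not pass: in the authors' deposited table ROBO1 had 0.161 at FDR 0.153 (27 nt) and ROBO2 0.765 at FDR 1 (12 nt).

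Signalling genes also held 3. MARK3, a kinase that acts on microtubule-associated proteins, had a 27-nt exon at -0.215 with FDR 9.99e-11 in the authors' deposited table. An exon of 24 nt in RAPGEF2, an exchange factor for Rap GTPases, had 0.52 at FDR 0.000936 in the authors' deposited table. The exon of 24 nt in TNIK, a kinase of the Wnt pathway, had 0.308 at FDR 0.00113 in the authors' deposited table.

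Of 4 passing microexons in genes for RNA binding, RNA processing and translation, 3 were higher in the second set. RPS24 encodes a protein of the small ribosomal subunit, and its 22-nt exon had -0.164 with an FDR listed as 0 in the authors' deposited table. It begins with a stop triplet and holds the annotated stop codon of the matched transcript. A 25-nt form of the same RPS24 exon, which starts 3 bases earlier, had -0.002 with a p-value of 1 in the authors' deposited table. The exon of 24 nt in CPEB2, which binds cytoplasmic polyadenylation elements, had -0.316 at FDR 0.00477 in the authors' deposited table. RTRAF, listed as C14orf166, holds the shortest passing exon, 3 nt that repeat the 3 bases before them; the authors' deposited table gave it -0.5 with FDR 0.0374. A 25-nt exon of ZBTB8OS, which encodes the tRNA-ligase cofactor archease, was higher in the first set, at 0.182 with FDR 0.000464 in the authors' deposited table.

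The remaining 8 passing microexons lay in genes of other functions, 5 with the first set higher and 3 with the second. The largest difference toward the second set among all passing microexons belonged to UGGT1, the sensor of glycoprotein folding in the endoplasmic reticulum, at -0.84 with an FDR listed as 0 in the authors' deposited table. ACOT9, a mitochondrial acyl-CoA thioesterase, had -0.657, also with an FDR listed as 0 in the authors' deposited table. SUCO had 0.212 at FDR 2.03e-07 for an exon of 21 nt in the authors' deposited table. The exon of 26 nt in LYSMD4 was listed at 1, from full inclusion to full skipping, with FDR 2.89e-07 in the authors' deposited table; it lies in the 5′ UTR of the matched transcript. TEAD2, NT5C2 and BRCC3 were also higher in the first set, and DESI1 was higher in the second.

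**Figure D1:**
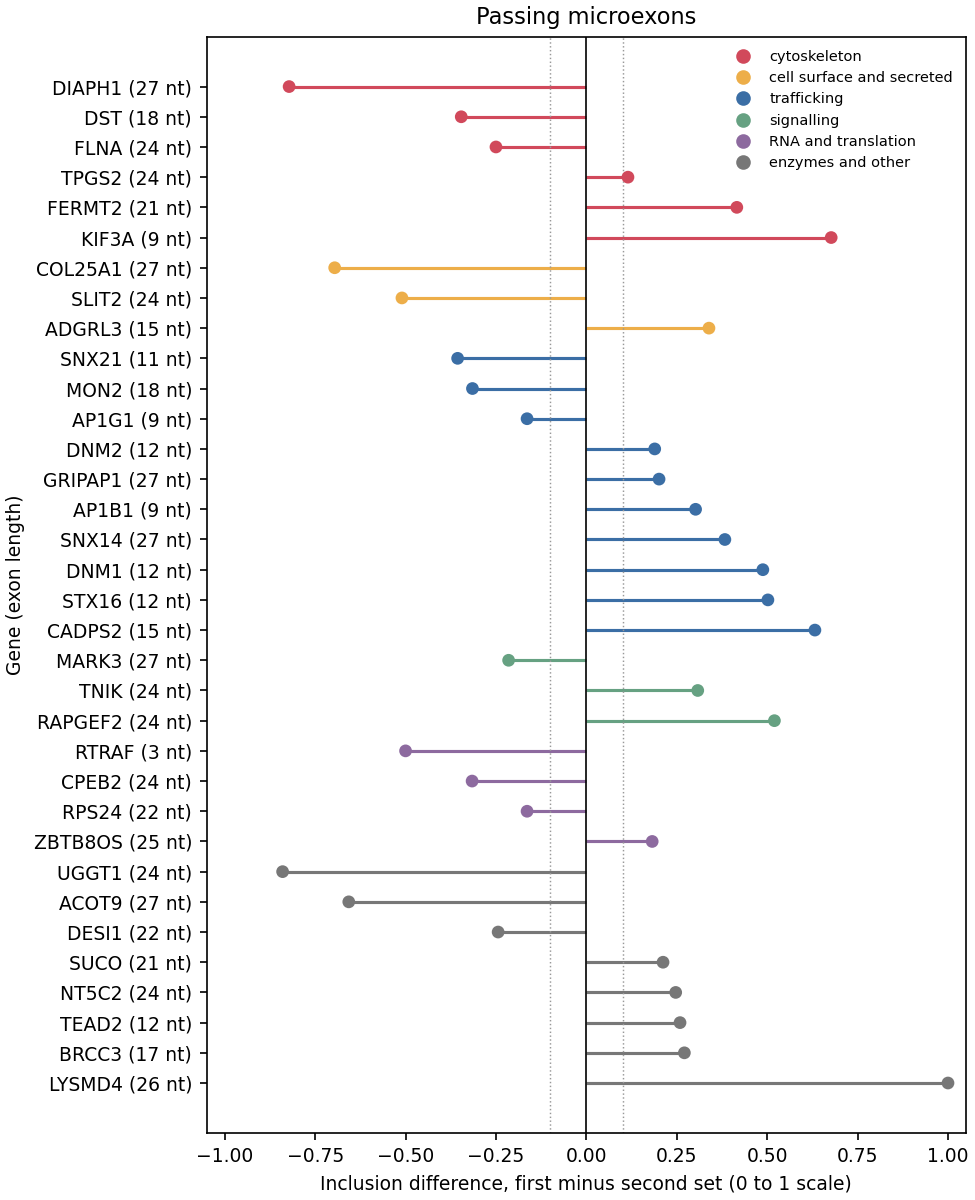
Inclusion difference (first minus second set, x axis, on the scale from 0 to 1) for each of the 34 passing microexons (y axis, gene with exon length), coloured by functional group; dotted lines mark 0.1 in either direction. UGGT1 and DIAPH1 lie furthest toward the second set (-0.84 and -0.822), and LYSMD4 lies at 1.

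The listed differences of passing microexons were larger in the median than those of other passing exons. All passing exons were chosen on this difference and its FDR, so the medians are not independent of the rule, and no test was made. Their median absolute difference was 0.328, against 0.268 for the 141 passing exons of 28 to 51 nt and 0.271 for all passing exons. An absolute difference of at least 0.5 was listed in the authors' deposited table for 11 of the 34 (32.4%), against 18.5% of all passing exons. Over all microexons, passing or not, the median absolute difference was 0.086, against 0.061 at 28 to 51 nt and 0.048 over all exons. Fewer possible read positions stand behind a microexon: its inclusion form had an effective length of 97 to 121 nt, up to 188 nt for longer exons, and the part of this in the larger differences was not tested.

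The share of passing exons was 8.53% at 28 to 51 nt, 5.83% at 52 to 99 nt, 5.35% from 100 nt to under 300 nt and 5.03% at 300 nt or more. The Wilson 95% intervals of microexons and of exons of 28 to 51 nt (7.28% to 9.97%) overlap. No test was made of the difference between these length classes. At the length limit itself, 6 of 53 exons of 27 nt passed, as did 2 of 21 exons of 28 nt.

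**Figure D2:**
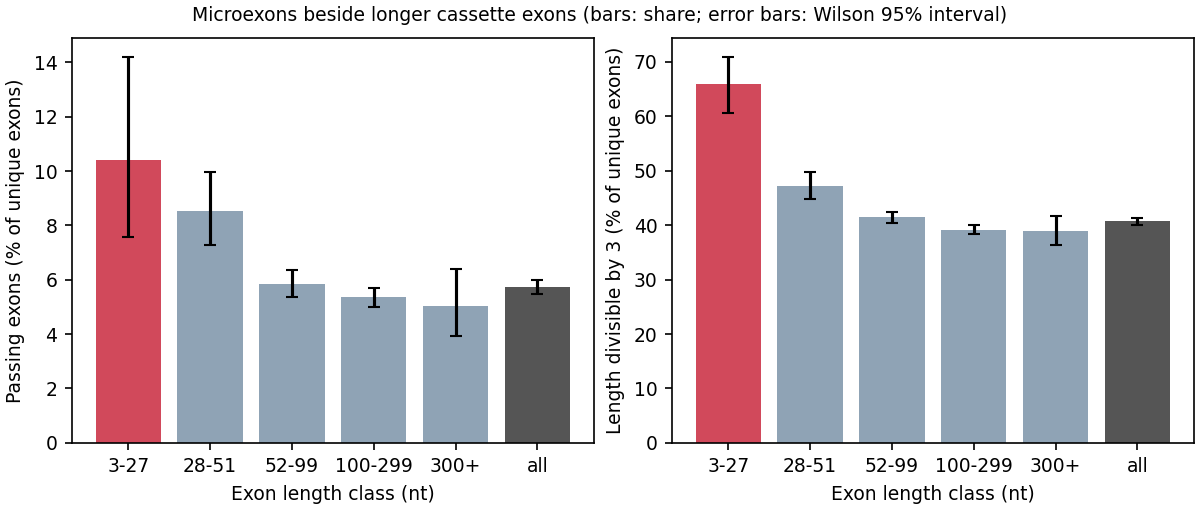
Share of passing exons (left) and of exons with a length divisible by 3 (right), in percent of unique exons (y axes), by length class in nt (x axis); error bars are Wilson 95% intervals. Microexons (red) stand at 10.4% and 66%, and all exons at 5.73% and 40.7%.

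Most microexons had a length that leaves a reading frame intact where they are coding. Of the 326, 215 were of a length divisible by 3 (66%, Wilson 95% interval 60.6% to 70.9%), against 47.2% at 28 to 51 nt and 40.7% of all exons. The share is set by the coordinates and does not depend on inclusion. The commonest lengths were 27 nt (53 exons), 24 nt (47), 18 nt (28), 21 nt (26) and 12 nt (23), all divisible by 3. Of the 21 microexons of at most 10 nt, 17 had a length divisible by 3 and 4 passed (KIF3A, AP1G1, AP1B1 and RTRAF).

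Of these 215, 176 were coding in the sense given below and the rest have no annotated frame of that kind. Of the 215, 28 passed (13%), where 3 of 51 with a remainder of 1 base (5.88%) and 3 of 60 with a remainder of 2 bases (5%) did. Over all unique exons 6.48% of those with a length divisible by 3 and 5.22% of the others passed, so lengths divisible by 3 had the higher share there too; at 28 to 51 nt these shares were 9.35% and 7.8%. No test was made of these differences. In the direction of the first set 16 of 19 passing microexons were divisible by 3, and in the other 12 of 15. The 4 coding microexons that passed with another length were in ZBTB8OS (25 nt), SNX21 (11 nt), DESI1 (22 nt) and BRCC3 (17 nt). Each is listed in more than 1 event, and its coding status can come from an event other than the passing one. A frame shift in the passing event is therefore not shown. RPS24 (22 nt) and LYSMD4 (26 nt) also had lengths not divisible by 3 but are not coding throughout.

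**Figure D3:**
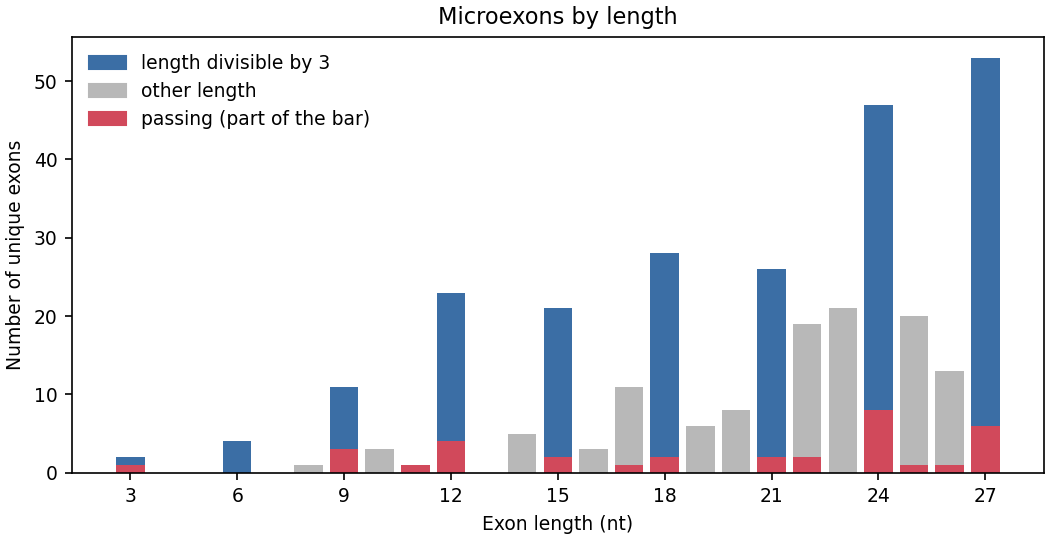
Number of unique microexons (y axis) at each length in nt (x axis), with lengths divisible by 3 in blue, others in grey and the passing exons in red as part of each bar. Lengths of 24 nt and 27 nt hold the most exons (47 and 53) and the most passing exons (8 and 6).

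A transcript of the same exon and intron lengths was found in GENCODE 29 for 308 microexons (94.5%), and for all 34 that passed. The coding sequence of a protein-coding transcript spanned 236 of the 308 (76.6%), against 66.1% of all matched exons. Of the passing microexons, 32 of 34 were coding in this sense (94.1%), against 58.2% of all passing exons that were matched. The other 2 were those of RPS24, which holds a stop codon, and LYSMD4. None of the 34 microexons matched only to transcripts without a coding sequence passed, nor did any of the 18 without a match.

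Among 168 coding microexons that keep frame and whose position in the codon is annotated, 80 began at a codon boundary (47.6%), 55 after the first base of a codon and 33 after the second. At 28 to 51 nt 48.2% of such exons began at a codon boundary, and among all of them 55.4% did. None of the 168 held a stop codon in frame, which follows from their place in an annotated coding sequence. Of 27 passing exons of this kind, 16 began at a codon boundary, 8 after the first codon base and 3 after the second.

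In base composition the coding microexons were close to those of 28 to 51 nt. They held 31.4% A, 26.7% G, 21.1% T and 20.9% C, against 29.5%, 25.3%, 22.9% and 22.3%. The last base was G in 194 of 236 (82.2%) and in 78.5% of the longer class. The introns beside microexons had a median of 1646 nt upstream and 1423 nt downstream, against 2152 nt and 2016 nt over all exons. A downstream intron under 300 nt was found for 19% of microexons and 14.1% of all exons; upstream these shares were 14.4% and 13.5%. Around the 34 passing microexons the medians were 1825 nt and 1677 nt, with a range of 159 to 53686 nt upstream and 119 to 11926 nt downstream.

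The RBFOX element GCATG was searched on the transcript strand in the 308 microexons with a sequence. It was found in 3 (0.974%), in PICALM, NCOR1 and GIT1, against 2.99% of exons of 28 to 51 nt, which offer more positions. These exons are printed with the element in capitals because no other microexon of those searched holds it whole. The 18 without a match were not searched. Only bases within the microexon were searched, so an element across a splice junction was not counted. In ACOT9, which passed, the base before the microexon and its first bases spell GCATG in the spliced sequence printed above. The other microexons were not searched for such junction elements, so this case has no share to be set against. Binding to it was not tested.

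PICALM, chr11:85689113-85689136, minus strand, 24 nt: aatgGCATGcattttccacaatac

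NCOR1, chr17:16054904-16054930, minus strand, 27 nt: tggagtacctgcaaggcGCATGatgaa

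GIT1, chr17:27905980-27906006, minus strand, 27 nt: atctcggcaaaagtGCATGtctcagag

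None of the 3 passed. PICALM, a clathrin assembly protein, had -0.057 at FDR 0.469 in the authors' deposited table. For NCOR1, a nuclear receptor corepressor, and GIT1, an ARF GTPase-activating protein, the authors' deposited table gave 0.085 and 0.03, both at FDR 1. The flanking introns, where RBFOX proteins usually bind, were not searched because no genome sequence of hg19 was used here.

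Some microexons resemble each other in related genes, which allows similar but not identical inserted sequences to be set side by side. Among microexons of at least 9 nt with a matched sequence and 30 spliced bases on each side, all 3953 same-length pairs in different genes were compared over the microexon and these flanks. Shorter and unmatched microexons were left out. Of the pairs compared, 5 were identical at 60% or more of the microexon and of the flanks together, a limit set after the sequences were seen. The flanks hold most of the bases compared, so pairs alike mainly within the microexon can be missed. The 27-nt exons of the related kinases MARK2 and MARK3 are alike but not among the 5. In the authors' deposited table MARK2 had 0.061 at FDR 0.489, and the MARK3 exon passed. The 3 pairs in which a member passed are printed. Substitutions are given as the base of the first-named exon, the position from 1 at its 5′ end, and the base of the second.

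DST, chr6:56333780-56333797, minus strand: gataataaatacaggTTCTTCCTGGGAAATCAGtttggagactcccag

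MACF1, chr1:39930767-39930784, plus strand: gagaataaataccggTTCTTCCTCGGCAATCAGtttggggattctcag

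ADGRL1, chr19:14277828-14277842, minus strand: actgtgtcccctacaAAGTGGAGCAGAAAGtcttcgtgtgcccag

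ADGRL3, chr4:62596340-62596354, plus strand: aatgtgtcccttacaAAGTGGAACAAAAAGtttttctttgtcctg

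DNM1, chr9:131002264-131002275, plus strand: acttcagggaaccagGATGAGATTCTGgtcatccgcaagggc

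DNM2, chr19:10919245-10919256, plus strand: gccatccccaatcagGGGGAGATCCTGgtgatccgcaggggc

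The spectraplakins DST and MACF1 share 16 of 18 bases of their microexon (G9C and A12C). The authors' deposited table gave -0.346 with FDR 8.89e-08 for DST and -0.015 with a p-value of 1 for MACF1. The latrophilins ADGRL1 and ADGRL3 share 13 of 15 bases (G8A and G11A), and their differences had opposite signs. In the authors' deposited table ADGRL1 had -0.487 at FDR 0.0507, just outside the limit, and ADGRL3 had 0.339 at FDR 0.00987. With another downstream exon the same ADGRL1 microexon had only -0.052, at a p-value of 0.36 in the authors' deposited table. The size of the contrast therefore depends on the event taken for ADGRL1.

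The dynamins share 9 of 12 bases in a microexon (A2G, T3G and T9C) that is not the passing microexon of DNM1. The authors' deposited table gave 0.062 at FDR 0.502 for this DNM1 exon and 0.189 at FDR 0.00561 for DNM2. No difference within a pair was tested. In the 2 remaining pairs, CACNB3 with CACNB4 and DTNA with DTNB, no exon passed.

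**Figure D4:**
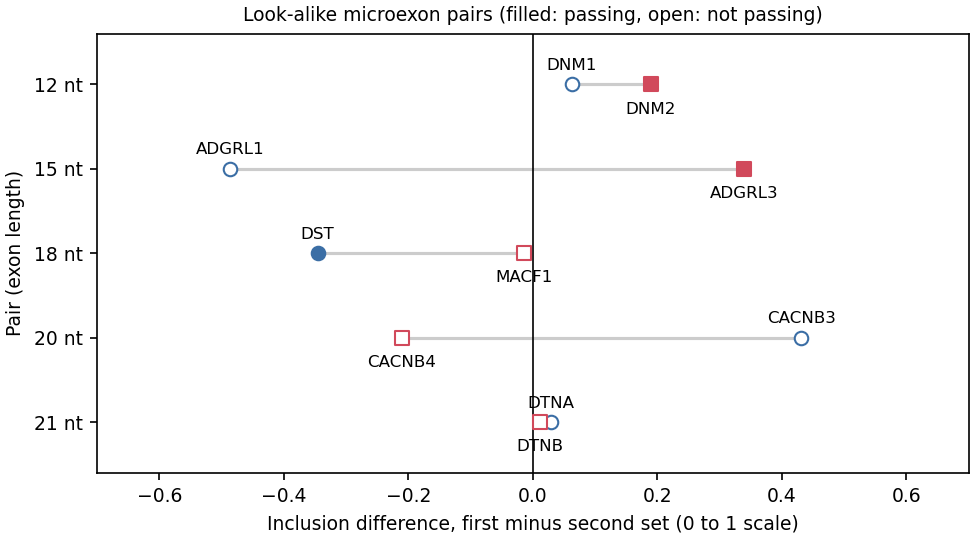
Inclusion difference (first minus second set, x axis, on the scale from 0 to 1) of each exon in the 5 look-alike pairs (y axis, exon length); circles are the first-named and squares the second-named gene, and filled symbols passed. Passing members are DNM2, ADGRL3 and DST, and ADGRL1 lies opposite ADGRL3 (-0.487 and 0.339). Another event of the ADGRL1 exon, at -0.052, is not plotted.

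A list of 68 genes known to hold microexons, mostly from work on neurons, was also read out. This list and the second one below were written from general knowledge with earlier results of these data known. The share of listed microexons that passed is therefore a description and no test. Of these genes 66 had an exon of any length in the table and 20 had a microexon, 25 microexons in all, each with a length divisible by 3. The list held 4 passing microexons (16%, where 10.4% of all microexons and 5.73% of all exons passed): DIAPH1, DST and MON2, higher in the second set, and DNM2, higher in the first. The median absolute difference of the 25 was 0.092, against 0.086 for all microexons. The 15-nt exon of ABI1, an adaptor of the WAVE actin regulatory complex, had FDR 0.00851 in the authors' deposited table with a difference of -0.092, short of the minimum. PTPRS, a receptor tyrosine phosphatase, had 4 microexons, the most of any gene, and none passed. A second list, of 23 splicing factors that act on short exons or on splice sites, had exons in the table for 16 genes, of which 0 were microexons.

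Microexons that did not pass could still have a listed difference above the minimum. Of the 292, 115 had an absolute difference of at least 0.1 in the authors' deposited table (39.4%, against 27.1% of all exons that did not pass), and 66 of these 115 had a p-value of 1. At least 0.5 was listed for 27 (9.25%, against 5.11%). An absolute difference of 1 was listed for 9, among them exons of PTPRS (9 nt) and PHB2 (6 nt), all with a p-value of 1. Just inside the FDR limit lay BRCC3, a deubiquitinase, at 0.271 with FDR 0.0392 in the authors' deposited table. Just outside it lay ADGRL1, given above, then INCENP at 0.15 with FDR 0.0511 and AFDN at -0.119 with FDR 0.0519 in the authors' deposited table.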

How the data were processed

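RNA was sequenced from 4 HEK293T clones, 2 wild type and 2 RBFOX2 knockout. The data are 1 table of skipped-exon events with junction reads, in the rMATS format per the file headers. STAR 2.7.3a and hg19 are named in the submitters' processing notes, with no role; the rMATS version and annotation are not given in the sources used here. The p-value, FDR and inclusion difference were deposited by the authors; the FDR matched a Benjamini-Hochberg adjustment of the p-values over all 31408 events (largest gap 2.22e-16). The 6 columns of values per library name no clone and were not used, so no model was refitted and depth is unknown here. The p-values test a difference in inclusion between the sets under the authors' model. They cover only these libraries and not the spread among further clones.

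An event passed at an FDR under 0.05 and an absolute difference of at least 0.1. Each exon carries the values and intron lengths of the event with its lowest p-value, taken among passing events where it has any. Ties went to the larger absolute difference. Coding status, codon position and printed flanks were chosen otherwise. They come from the event whose matched transcript codes through the exon where there is one, and only then from the lowest p-value. For exons in several events they can belong to another event, and the choice favours coding. Exons were matched to GENCODE 29 by gene, exon length and both intron lengths, without coordinates; 2 of the matched microexons had the same start in GENCODE 29, which is on GRCh38. Symbols follow current names. Members, gene lists and thresholds were chosen with earlier results of these data known. Named exons were those with a p-value under 1e-10, the 10 lowest per direction, the 5 shortest, passing exons of the lists and those next to the FDR limit; any other exon was named once its values were known. The calling step was checked on planted events. Alternatives were FDR limits of 0.01 and 0.1, Bonferroni correction, minimum differences of 0 and 0.2, correction within exons, 1 exon per gene and length limits of 15, 24 and 30 nt. The scripts ran in Python 3.11.15 with numpy 2.4.6, pandas 2.3.3 and, for figures, matplotlib 3.10.9.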

Additional observations from a re-analysis of the deposited data

How the results depend on the processing

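Under Bonferroni correction over the table, 17 microexons and 17 events passed in place of 34, 7 with the first set higher (41.2%, within the Wilson interval of the main share, 39.5% to 71.1%), and 2 in the known microexon genes in place of 4. With the length limit at 15 nt, 11 of 71 exons passed. Both counts are lower by construction. Under the other alternatives run, 26 to 43 microexons passed, 54.1% to 59.3% of them with the first set higher where that share was computed, and 3 to 5 in the known genes; the alternatives for the known genes were added after the data were seen. The share divisible by 3 was 64.1% with 1 exon per gene and 65.9% in matched exons. Of the 25 passing exons that the rule names, 21 passed at an FDR of 0.01, 17 under Bonferroni and 21 at a minimum difference of 0.2; ADGRL1, just outside the limit, passed at an FDR of 0.1. No paired analysis was possible because the columns carry no replicate number; leaving out each library, the read filter and the intron motif windows were not run either, so how far 1 clone decides a call is not shown.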

Other observations

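Some microexons are listed with more than 1 pair of flanking exons. This was so for 27 of the 326, in 64 events, and 6 of the 27 passed: ZBTB8OS, MARK3, SNX21, STX16, DESI1 and BRCC3. Each passed in 1 event. Their other 13 events did not pass; the difference had the sign of the passing event in 6, the opposite sign in 6 and was 0 in 1. The 12-nt exon of STX16 had 0.502 in its passing event and 0.5, 0.057 and -0.502 in its other events in the authors' deposited table, the last at a p-value of 1. For the MARK3 exon the authors' deposited table gave -0.215 in the passing event and -0.82 at a p-value of 1 with another downstream exon. The part of the flanking exons in these differences was not tested.

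In 20 genes 2 or more microexons were listed. In several with a passing microexon, the further one had a much smaller difference in the authors' deposited table. DIAPH1 had -0.822 and 0.045, SLIT2 -0.51 and 0.01, and DNM1 0.488 and 0.062. RPS24 had -0.164 and -0.002, and STX16 0.502 and 0.113. Another 3 of these genes, chosen after their values were seen, had the same sign in both. Whether microexons of 1 gene differ together was not tested. CADPS2 had 0.632 for its 15-nt exon, which passed, and 0.62 with a p-value of 1 for a 21-nt exon in the authors' deposited table. RAPGEF2 had 0.52 for its 24-nt exon and 0.203 at FDR 0.226 for an exon of 18 nt in the authors' deposited table. COL25A1 had -0.696 for its 27-nt exon and -0.173 at FDR 1 for an exon of 24 nt in the authors' deposited table.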
